A study of Mus musculus with 2 samples.

Results

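The genes described here encode the machinery that copies DNA once per cell cycle. They were chosen by name, as 47 genes for origin licensing, the replicative helicase, polymerases, clamp loaders and nucleotide synthesis, out of 49492 genes in the count table, and every one of the 47 was found. RNA of mammary basal cells, sorted by flow cytometry as lineage-negative, CD24+ and CD29hi cells (negative for CD45, CD31 and TER119, which mark blood and endothelial cells), was sequenced from 2 groups of mice with 1 library each. CL basal came from mice given clodronate liposomes (CL), lipid vesicles that kill the macrophages that take them up. Ctrl basal came from control mice, which the sample labels give as having no treatment and the series text gives as treated with saline. Both groups were wild type and labelled day 7, and the study's methods describe females 8 to 10 weeks old that received CL by repeated intraperitoneal injection. The study names C57/B6 mice for other experiments with CL, but the sources used here do not give the strain or the number of mice for these 2 libraries.

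DNA replication is prepared in G1, when the origin recognition complex (ORC), with Cdc6 and Cdt1, loads the MCM2-7 helicase on origins in an inactive double ring. At the start of S phase, the kinase Cdc7 with its activator Dbf4, and then Cdc45 and the GINS complex, turn the loaded rings into active helicases. Polymerase alpha with primase starts each strand, replication factor C (RFC) loads the sliding clamp PCNA, and polymerases epsilon and delta extend the strands. Transcription of many of these genes is driven by E2F factors as cells enter S phase, and in the adult virgin mammary gland only a minority of basal cells is in cycle at a time.

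The comparison asked whether the replication machinery differed between basal cells of macrophage-depleted and control mice. As a whole its genes stayed close to level. The 47 genes held 24964 counts after CL and 24564 in the control library, 0.0641% and 0.0649% of each total. Their median log2 fold change (CL basal over Ctrl basal, after scaling by effective library size) was -0.08, beside -0.01 for the 17356 genes of the table that reached 20 counts in the sum of the libraries. Its quartiles lay at -0.30 and 0.13, and the values ranged from -1.59 (*Rfc4*) to 0.50 (*Rfc5*).

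All 47 genes passed the minimum of 20 counts, with 77 (*Pole*) to 10725 (*Pcna*) counts over both libraries. At least 2-fold lower in CL basal were 3 of the 47, *Rfc4*, *Pole* and *Orc1*, which is 6.38%, against 4.79% of all genes tested. None was at least 2-fold higher, against 2.07% of all genes. At the smaller threshold of 1.5-fold, 6 were lower (12.8%, against 11.7% of all genes), with *Lig1*, *Gmnn* and *Tyms* added, and 0 were higher, against 6.33%. The shares of lower genes thus lay near those of all genes. With 1 library per group there is no replicate check of any difference, and no p-value is given. Each gene carries instead a 95% exact interval, which covers counting error only. The interval lay below 0 for 10 genes (21.3%, against 17.4% of all genes), above 0 for 4 (8.51%, against 18.5%), and held 0 for 33. For those 33 no difference was detectable at this depth.

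**Figure D1:**
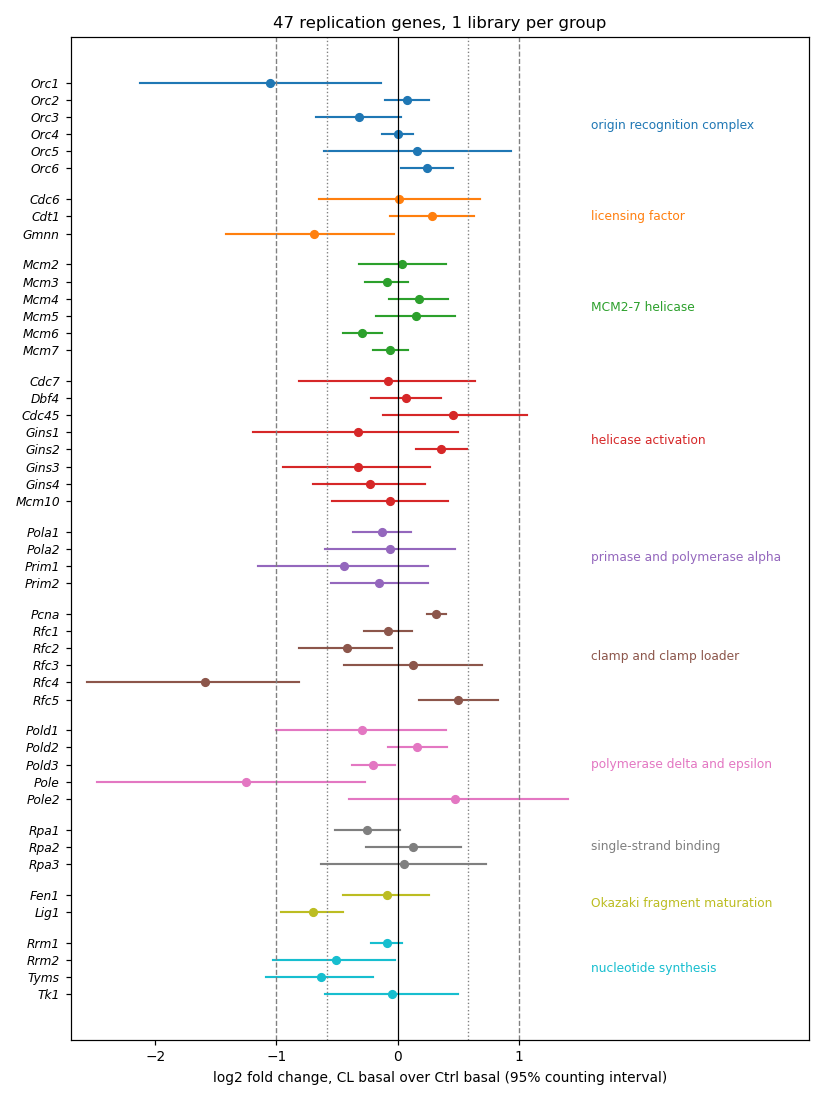
Log2 fold change of CL basal over Ctrl basal for the 47 genes by role, with points for the value and lines for the 95% counting interval; dotted and dashed lines mark 1.5-fold and 2-fold. Most points lie within the dotted lines, and the 3 beyond the dashed line, *Rfc4*, *Pole* and *Orc1*, have wide intervals.

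The library labels were checked with marker genes. The 9 basal markers were abundant in both libraries, with 764693 counts after CL and 727754 in the control library and log2 fold changes from -0.23 (*Krt5*) to 0.33 (*Mylk*). Luminal markers were present too, and lower in CL basal. Of 15, *Csn2* and *Wap* were at 0 in both libraries, 13 were tested and 11 were at least 1.5-fold lower (84.6%, against 11.7% of all genes, with a median of -0.86 and summed counts of 93780 and 167452). The 11 macrophage markers held 1120 and 1485 counts (median -0.33 over 9 tested), with *Adgre1* (the F4/80 antigen) at 10 and 7. The 10 lymphoid markers held 814 and 827 counts (median -0.03 over 8 tested, with *Ncr1* at 0 in both libraries). The 6 fibroblast markers held 7840 and 9542 counts (median -0.42), and the 5 endothelial markers held 11176 and 13955 (median -0.32). Markers past 2-fold with at least 100 counts were *Krt7*, *Krt19*, *Areg* and *Csn3* (-1.65 to -1.11), *Lum* (-1.86) and *Mpeg1* (1.58). The best counted of each list were *Myh11* (290054 and 285095), *Krt8* (53150 and 86539), *Cd14* (468 and 748), *Ptprc* (521 and 537), *Col3a1* (2508 and 2330) and *Cdh5* (5173 and 6462). The sort gate is meant to leave out cells with CD45 or CD31 on their surface, and luminal cells, which are CD29low. *Ptprc*, which encodes CD45, and *Pecam1*, which encodes CD31 (4266 and 5503 counts), were nevertheless counted in both libraries. The part of these other cells in the differences given here was not tested, and in a bulk sample fewer cells of a type and less RNA per cell cannot be told apart.

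Among the 6 subunits of ORC, the complex that marks origins, only *Orc1* was past a fold threshold. *Orc1* (chromosome 4, 108579423 to 108614833, plus strand, GRCm38), the subunit whose protein is removed during S phase in mammalian cells, had 28 counts after CL and 60 in the control library. Its log2 fold change was -1.05, with an interval of -2.13 to -0.14, and it fell short of 2-fold with a prior count of 5 (-0.98) or with a trend on mean expression removed (-0.94). It shares 10.8% of its exonic bases with *Gm12743* on the other strand, which had 20 counts in each library. *Orc2* had 1032 and 975 counts and *Orc4* had 1816 and 1811, so that both were level within 0.1 on the log2 scale, although *Orc2* shares 29.8% of its exonic bases with *Nif3l1* on the other strand (770 and 730 counts). *Orc6* had 798 and 673 counts (0.24, interval 0.03 to 0.46), and shares 6.93% of its exonic bases with the opposite-strand gene *Vps35* (3479 and 3280 counts). *Orc3* (254 and 316 counts, -0.32) and *Orc5* (64 and 57 counts, 0.16) had intervals that held 0.

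The licensing factors that bring the helicase to ORC had intervals that held 0, and their inhibitor was lower. *Cdc6*, the loader ATPase, had 81 counts after CL and 80 in the control library. *Cdt1*, which escorts the MCM ring, had 311 and 255 counts (log2 fold change 0.28, interval -0.06 to 0.63). *Gmnn* (chromosome 13, 24751845 to 24761923), which encodes geminin, the S and G2 phase protein that binds Cdt1 and blocks a second licensing, had 60 and 98 counts. Its log2 fold change was -0.69 (-1.42 to -0.03), past 1.5-fold.

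The 6 genes of the MCM2-7 ring were all under 1.5-fold. So were most genes tested, of which 11.7% were at least 1.5-fold lower and 6.33% higher. *Mcm2* had 266 counts after CL and 258 in the control library, and *Mcm3* had 1010 and 1070. *Mcm4* had 593 and 523, and *Mcm5* had 341 and 307. These 4 had intervals that held 0, as did *Mcm7* with 1520 and 1578 counts. *Mcm6* (chromosome 1), with 1156 and 1409 counts, was the exception, at a log2 fold change of -0.29 (-0.45 to -0.13). The median of the 6 was -0.01 and their standard deviation 0.17, where *Mcm2*, *Mcm4* and *Mcm5* had at least 500 and under 2000 counts and the other 3 had more. Among all genes the standard deviation was 0.33 in the former class and 0.26 at 2000 counts or more.

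Sequence was examined because E2F factors are known to act on this family. RefSeq promoters (GRCm38.p6) were matched by symbol for 39 of the 47 genes, and the 250 bases before each gene start were searched on both strands for the E2F words TTTCCCGC, TTTCGCGC, TTTGCCGC and TTTGGCGC. At least 1 of these words stood in 9 of the 39 genes (23.1%), against 583 of 27025 genes with a promoter (2.16%). Among protein-coding genes alone the share was 2.72%. The 9 genes were *Cdc6*, *Gins3*, *Mcm5*, *Mcm6*, *Mcm7*, *Orc1*, *Orc3*, *Pola1* and *Rfc3*, and their log2 fold changes ran from -1.05 (*Orc1*) to 0.15 (*Mcm5*). A match describes the letters and is not evidence of a site in use. *Gmnn*, *Mcm4*, *Gins1*, *Gins2*, *Gins4*, *Prim2*, *Rfc2* and *Pole* were not matched.

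The 170 bases before the RefSeq start are given for 5 of the 9, the 3 helicase subunits, *Cdc6* and *Orc1*, 5′ to 3′ on the strand of the gene, with the E2F words in capitals. They lie at chr8:75109339-75109508 (*Mcm5*, plus strand), chr1:128359706-128359875 (*Mcm6*, minus strand), chr5:138171884-138172053 (*Mcm7*, minus strand, 1 of 2 starts), chr11:98907981-98908150 (*Cdc6*, plus strand) and chr4:108579284-108579453 (*Orc1*, plus strand). These starts differ from the outermost ends of the genes in the count table. The windows of *Mcm5* and *Mcm6* end 60 and 41 bases outside the gene, that of *Orc1* runs 31 bases into it, and those of *Cdc6* and *Mcm7* lie inside it.
Mcm5: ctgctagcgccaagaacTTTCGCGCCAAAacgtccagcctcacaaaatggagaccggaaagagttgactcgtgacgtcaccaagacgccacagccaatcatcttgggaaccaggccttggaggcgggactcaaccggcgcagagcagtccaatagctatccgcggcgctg
Mcm6: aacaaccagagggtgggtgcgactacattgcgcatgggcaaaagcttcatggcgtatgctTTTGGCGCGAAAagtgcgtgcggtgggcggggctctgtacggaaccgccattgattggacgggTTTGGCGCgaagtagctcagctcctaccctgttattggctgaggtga
Mcm7: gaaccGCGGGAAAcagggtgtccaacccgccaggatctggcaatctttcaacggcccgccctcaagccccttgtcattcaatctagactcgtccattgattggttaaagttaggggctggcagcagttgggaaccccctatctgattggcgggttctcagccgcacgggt
Cdc6: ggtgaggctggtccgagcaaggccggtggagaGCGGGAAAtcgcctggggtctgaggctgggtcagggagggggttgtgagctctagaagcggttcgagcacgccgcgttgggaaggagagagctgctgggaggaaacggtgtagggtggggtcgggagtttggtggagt
Orc1: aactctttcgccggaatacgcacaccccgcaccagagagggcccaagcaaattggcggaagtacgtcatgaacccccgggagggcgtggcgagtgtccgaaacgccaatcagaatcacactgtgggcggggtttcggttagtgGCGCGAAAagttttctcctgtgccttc

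In *Mcm5*, and at the farther place in *Mcm6*, 2 words on opposite strands overlap and form 1 run of capitals. The words begin 153 and 149 bases before the RefSeq start of *Mcm5*, 110, 106 and 47 bases before that of *Mcm6*, and 27 bases before that of *Orc1*. *Mcm5* and *Mcm6* thus held the same kind of word, with log2 fold changes of 0.15 and -0.29, and *Orc1* held 1 such word with -1.05.

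The 8 helicase activation genes were all under 1.5-fold, as were most genes tested (11.7% at least 1.5-fold lower and 6.33% higher). *Cdc7* had 67 counts after CL and 71 in the control library, and *Dbf4* had 413 and 393. *Cdc45*, which joins the active helicase, had 118 and 85 counts (log2 fold change 0.46, interval -0.12 to 1.07). It shares 9.28% of its exonic bases with *Ufd1l* on the other strand (2075 and 2124 counts). Of the 4 GINS subunits, *Gins2* was higher, with 872 and 679 counts (0.36, 0.15 to 0.57), and *Gins1*, *Gins3* and *Gins4* lay between -0.33 and -0.23 with intervals that held 0. *Gins2* shares 2758 of its 4097 exonic bases (67.3%) with *Gse1* on the other strand, which had 3567 counts after CL and 2509 in the control library, so its value is uncertain. *Mcm10*, which helps to start the helicase, had 150 and 156 counts.

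The log2 fold changes of the 4 genes of polymerase alpha and primase ran from -0.44 (*Prim1*, 64 counts after CL and 87 in the control library) to -0.06 (*Pola2*, 119 and 124). Each of the 4 intervals held 0, also for the catalytic subunit *Pola1* with 565 and 616 counts.

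The clamp and its loader held both ends of the range. *Pcna* (chromosome 2), the sliding clamp that ties polymerases to DNA and also serves in repair, had 5963 counts after CL and 4762 in the control library. Its log2 fold change of 0.32 had the narrowest interval of the family, 0.24 to 0.40. *Pcna* alone made up 23.9% of the family's counts after CL and 19.4% in the control library, and without it the log2 ratio of the summed counts was -0.06 in place of 0.02. The pseudogene *Pcna-ps2*, which could exchange reads with it, had 63 and 44 counts.

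Within RFC, a ring of 5 subunits that opens the clamp, the genes parted. *Rfc4* (chromosome 16, 23113943 to 23127737, minus strand) had 32 counts after CL and 100 in the control library, the lowest value of the family at -1.59 (-2.56 to -0.81). *Rfc5*, which encodes another small subunit, had 389 and 274 counts, the highest value at 0.50 (0.18 to 0.83), and shares 10.7% of its exonic bases with *Wsb2* on the other strand (1822 and 1735 counts). *Rfc2* had 205 and 275 counts (-0.42, -0.81 to -0.05), while *Rfc1* (798 and 843) and *Rfc3* (114 and 104) had intervals that held 0. The 4 subunits other than *Rfc4* together held 1506 and 1496 counts. *Rfc4* shares 194 of its 1534 exonic bases with the opposite-strand gene *Eif4a2*, which had 16522 and 15616 counts, and the use of strand in counting was not stated.

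Of the replicative polymerases, *Pole* (chromosome 5, 110286306 to 110337474, plus strand), the catalytic subunit of the leading-strand polymerase epsilon, had 22 counts after CL and 55 in the control library. Its log2 fold change was -1.25 (-2.48 to -0.27). Its partner *Pole2* had 55 and 39 counts (0.47, -0.40 to 1.41). Of polymerase delta, *Pold3* had 969 and 1108 counts (-0.20, -0.38 to -0.02), and *Pold1*, the catalytic subunit, had 67 and 82. *Pold2* had 594 and 530 counts. The single-strand binding proteins *Rpa1*, *Rpa2* and *Rpa3* lay between -0.25 and 0.13, each with an interval that held 0.

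Okazaki fragments on the lagging strand are trimmed by the nuclease Fen1 and sealed by DNA ligase 1. *Lig1* (chromosome 7) had 406 counts after CL and 659 in the control library. Its log2 fold change of -0.70 (-0.96 to -0.45) was past 1.5-fold and, with 1065 counts, was the best counted of the 6 lower genes. *Lig1* shares 247 of its 4268 exonic bases with *6330408A02Rik* on the other strand (403 and 527 counts). *Fen1* had 259 and 276 counts. It shares 78.8% of its exonic bases with *Gm10143* on the other strand (255 and 263 counts), and without strand the reads of that stretch cannot be told apart, so its value is uncertain.

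Of the 4 nucleotide synthesis genes, *Tyms* and *Rrm2* had intervals below 0. *Tyms* (chromosome 5), the thymidylate synthase, had 144 counts after CL and 224 in the control library, which is a value of -0.63 on the log2 scale (-1.09 to -0.20), past 1.5-fold, but not with the trend removed (-0.55). *Rrm2*, the small subunit of ribonucleotide reductase that is made in S phase, had 116 and 166 counts (-0.51, -1.03 to -0.02). *Rrm1*, the large subunit that is present throughout the cycle, had 1791 and 1902 counts (-0.09, -0.22 to 0.04). *Tk1*, thymidine kinase, had 114 and 118 counts (-0.05, -0.60 to 0.50).

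The 3 genes past 2-fold were among the least counted of the family. Of the 34 genes with at least 200 counts, 0 were at least 2-fold lower and 2 (*Lig1* and *Tyms*) were at least 1.5-fold lower, a share of 5.88% against 5.12% of all genes with as many counts. Of the 13 genes under 200 counts, 3 were at least 2-fold lower (23.1%), against 8.66% of all genes with at least 50 and under 200 counts. Exonic bases shared with another gene were found for 16 of the 47 genes. The 3 genes past 2-fold were among these 16, although *Pole* shares only 78 of 11160 bases, with a gene that had 0 and 1 counts. The other 31 genes had a median of -0.08 and a lowest value of -0.69 (*Gmnn*). Of the 4 genes with intervals above 0, only *Pcna* was among these 31, and of the 10 with intervals below 0, 5 were.

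**Figure D2:**
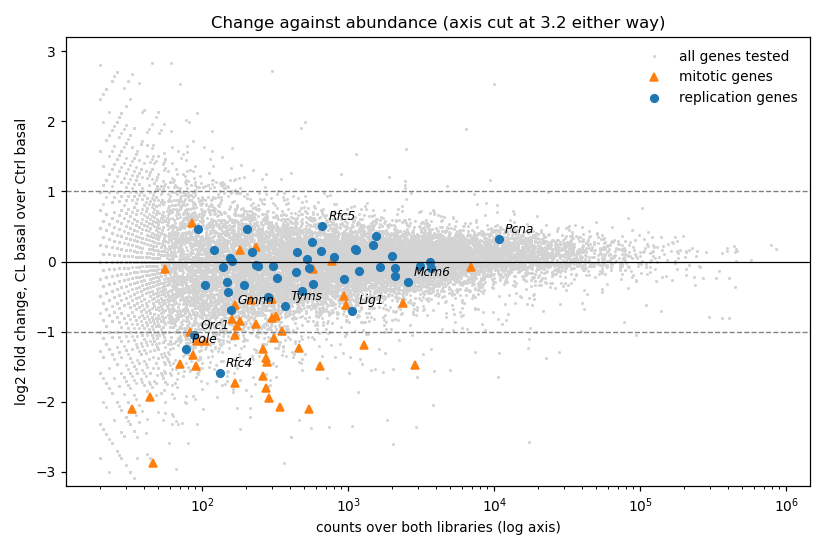
Log2 fold change of CL basal over Ctrl basal against counts over both libraries (log axis), for all genes tested (grey), the replication genes (circles) and mitotic genes (triangles). Most replication genes lie within the grey band, which widens at low counts. At 100 to under 200 counts their median was -0.31, against -0.11 for all genes. Of the 44 mitotic genes, 40 lie below 0.

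Levels of different genes were compared per exonic length, as TPM, which divides counts by exonic length and scales each library to the same total. *Pcna* stood apart at 176 TPM in CL basal and 139 in Ctrl basal, at percentile 94.8 of the genes tested by mean level. The helicase subunits ranged from 2.70 and 2.59 TPM (*Mcm2*) to 24.3 and 24.9 (*Mcm7*), a ratio of 9.29 in mean level between the highest and the lowest, although their proteins work in equal numbers. In ORC the ratio was 30.4, from *Orc5* (0.734 and 0.646 TPM) to *Orc6* (22.9 and 19.0).

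The catalytic subunits of both replicative polymerases were at low levels. *Pole* had 0.139 TPM after CL and 0.344 TPM in the control library, the lowest level of the family, and *Pold1* had 0.975 and 1.18. *Pold2*, an accessory subunit, had 22.2 and 19.5 TPM. By role, *Cdt1* (mean 6.34 TPM) exceeded *Cdc6* (1.08), *Gins2* (13.3) exceeded *Cdc7* (1.16), *Pola1* (4.71) exceeded *Prim1* (1.37), and *Rrm1* (11.8) exceeded *Tk1* (1.57). The level of *Gins2* is uncertain, as 67.3% of its exonic bases are shared with *Gse1*. The 3 RPA genes were the closest, with a ratio of 1.22 between *Rpa1* (5.87) and *Rpa3* (4.79), apart from *Lig1* (8.75) and *Fen1* (7.76) with 1.13. The level of *Fen1* is uncertain too, as 78.8% of its exonic bases are shared with *Gm10143*. In RFC the lowest mean level was that of *Rfc3* (2.12).

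**Figure D3:**
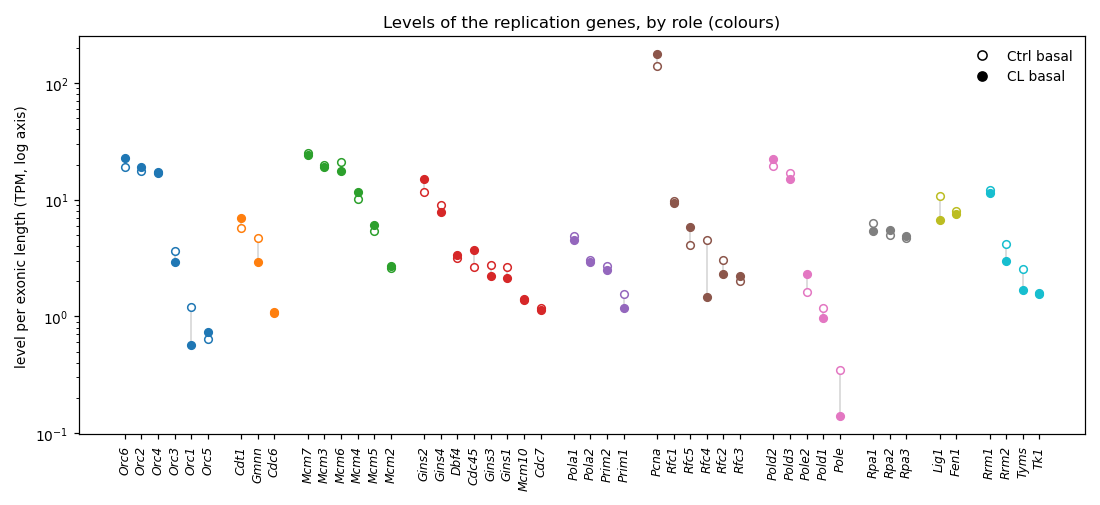
Level per exonic length (TPM, log axis) of each gene, grouped by role and sorted by mean level, with open circles for Ctrl basal and filled circles for CL basal. Within ORC, the MCM2-7 ring and the polymerases the genes spread over more of the axis than the libraries differ, and grey lines mark the gap between libraries, widest for *Rfc4*, *Pole* and *Orc1*.

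Other genes that act with the replication machinery were close to level on the median. Of 104 genes in 6 further lists, 103 were tested, 3 were at least 2-fold lower (2.91%, against 4.79% of all genes) and 0 at least 2-fold higher (against 2.07%), and the median was 0.00. The 27 other fork genes had a median of -0.08. Among them *Clspn*, the checkpoint mediator claspin, had 98 counts after CL and 214 in the control library (-1.11, -1.65 to -0.63). *Top1*, the topoisomerase that relaxes DNA ahead of the fork and at transcribed genes, had 92291 and 76789 (0.26). The third gene at least 2-fold lower was the clamp loader gene *Chtf18*, with 8 and 27 counts.

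A further list held chromatin genes coupled to replication, which are histone chaperone genes, the DNA methylation genes *Dnmt1* and *Uhrf1*, and others. Of the 14 tested, 12 were above 0, against 8370 of the 17356 genes tested, and the median was 0.16. Intervals lay above 0 for 9 of the 14 (64.3%, against 18.5% of all genes). That share rises with counts. At 2000 counts or more it was 7 of 8 genes here, against 41.4% of all genes with as many. The best counted was the histone chaperone gene *Nasp*, with 30803 and 24587 counts (0.32). The 22 further nucleotide supply genes had a median of -0.02, with *Impdh2* at 4115 and 3772 counts (0.12).

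Regulators of the family varied gene by gene. In the E2F and RB family (13 genes, median -0.04), *E2f8*, a repressor of E2F targets, had 144 counts after CL and 317 in the control library (-1.13, -1.56 to -0.73). *Tfdp1*, the partner of E2F proteins, had 2295 and 2569 counts (-0.17). The 16 S phase kinase and checkpoint genes had a median of 0.14, with *Cdkn1a* at 3676 and 3324 counts. The 11 ubiquitin pathway genes that act at replication had a median of 0.04, with *Ddb1* at 9733 and 10411 counts. They hold ligase genes and also the deubiquitinase genes *Usp1* and *Usp37*.

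Genes of mitosis stood at other values in the same libraries. Of 44 mitotic genes, 24 were at least 2-fold lower (54.5%, against 4.79% of all genes and 8.66% of those with at least 50 and under 200 counts), 34 at least 1.5-fold lower (77.3%, against 11.7%) and 35 had intervals below 0 (79.5%, against 17.4%). They had a median of -1.07 beside -0.08 for the replication genes. *Mki67* had 754 counts after CL and 2103 in the control library (-1.48), *Top2a*, the topoisomerase that parts sister chromatids, had 390 and 891 (-1.19), and *Tpx2*, a spindle factor, had 168 and 473 (-1.49). *Cenpe* (101 and 437), *Cenpf* (64 and 275), *Ube2c* (58 and 230), *Spc25* (60 and 214), *Nuf2* (38 and 130), *Kif15* (63 and 200) and *Ndc80* (74 and 204) lay between -2.10 and -1.44. *Cdca8*, *Kif20b*, *Anln*, *Ect2*, *Kif4* and *Sgol2a* lay between -1.38 and -1.05. *Smc4*, a condensin subunit and the best counted of the list, had 3369 and 3542 counts (-0.08). The study chose several of these mitotic genes partly on these libraries, so the list is not independent evidence of its direction, and the difference between the lists was not tested.

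The promoters of the mitotic genes were searched for the same words. The E2F words stood in 4 of the 39 mitotic genes with a promoter (10.3%). The word TTTGAA, known from the cell cycle genes homology region (CHR) of G2 and M phase genes, stood in 13 of those 39 (33.3%), in 6 of the 39 replication genes (15.4%) and in 18.3% of all genes. The word CCAAT stood in 71.8% of the mitotic, 59% of the replication and 37.5% of all genes. Among protein-coding genes alone the shares were 2.72% for the E2F words, 16.9% for TTTGAA and 39.5% for CCAAT.

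**Figure D4:**
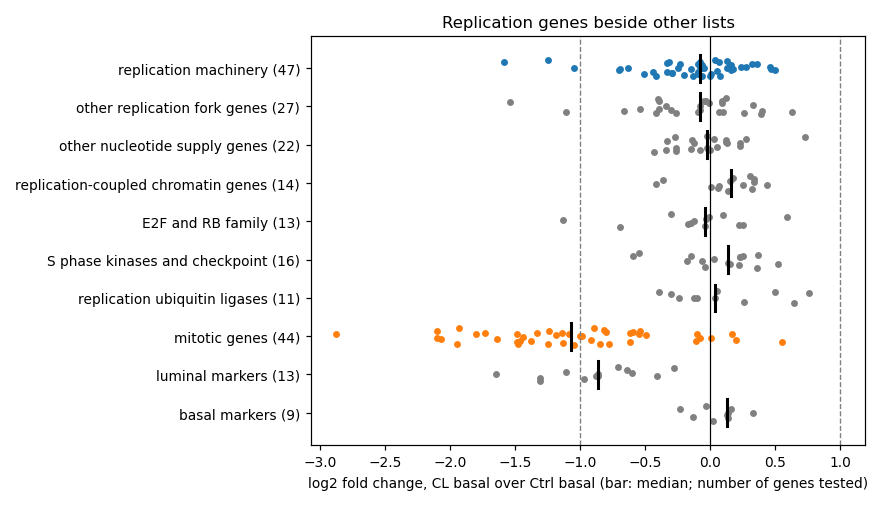
Log2 fold change of CL basal over Ctrl basal for each tested gene (points) and the median (bar) of the replication genes and 9 other lists. The replication genes centre near 0 (median -0.08), the mitotic genes near -1.07 and the luminal markers near -0.86.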

How the data were processed

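The authors deposited 1 table of raw read counts, summed over the annotated exons of each gene in the layout of featureCounts and with GRCm38 coordinates. How reads were aligned, filtered and assigned to strands was not given in the sources used here. Columns with the authors' own ratio and log2 ratio of the libraries were not used. The libraries held 38962512 (CL basal) and 37846008 (Ctrl basal) counts, and the exonic lengths in the table gave TPM.

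Library sizes were adjusted by TMM normalization in edgeR 4.0.16 (R 4.3.3), with factors of 0.9869 and 1.0133, and log2 fold changes used a prior count of 2. Of values from 1 to 20, 68.7% and 67.9% were even, against 49.9% and 49.7% of values over 1000, a pattern that arises when both mates of a pair are counted. Intervals (Clopper-Pearson, 95%, scipy 1.17.1) were therefore computed from counts divided by 2, and remain too narrow where PCR copies were counted. No model with a spread between replicates can be fitted to 1 library per group, so called means past the fold named. The calculation was also run on simulated counts. In these every fragment was counted as 2 reads and no spread between replicates was added, so the run checks the arithmetic only. The members, lists and rules were chosen with earlier results of these data known. Named genes were members past 1.5-fold, the MCM2-7 ring, *Pcna*, *Gmnn*, *Cdc6*, *Cdt1* and the highest and lowest level in each role, and in other lists those past 2-fold with at least 100 counts and the best counted gene. Others were named after their values were seen. Alternatives were scaling by total counts, DESeq2 1.42.0 size factors or upper quartiles, prior counts of 0.5 and 5, a minimum of 100 counts or none, removal of a trend on mean expression, and thinning of the deeper library.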

Additional observations from a re-analysis of the deposited data

How the results depend on the processing

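Across 9 alternatives of scaling, prior count, filter, trend and depth, the median log2 fold change of the 47 genes ran from -0.12 (total counts, where the median of all genes was -0.04) to -0.03 (trend on mean expression removed). With at least 100 counts, 1 gene was at least 2-fold lower, since *Orc1* and *Pole*, with *Pole2*, drop out of the 47. With a prior count of 5, or with the trend removed, 2 were at least 2-fold lower, as *Orc1* moved to -0.98 and -0.94. With the trend removed, *Tyms* moved to -0.55, short of 1.5-fold, and 1 gene was at least 1.5-fold higher, *Pole2* at 0.59. With intervals from counts as deposited, 7 genes in place of 4 had an interval above 0 and 12 in place of 10 had one below 0, as the intervals are then narrower. With the trend removed, 7 had one below 0, and with scaling by total counts 3 had one above 0 and 12 one below 0. Values near 0 changed sign for *Tk1* (0.04), *Pola2* (0.03), *Mcm10* (0.03) and *Cdc7* (0.02) with the trend removed, and for *Cdc6* (-0.02) with total counts. *Orc4*, at 0.00, moved to -0.04 with total counts and to -0.03 with the trend removed. *Rfc4* stayed between -1.63 and -1.48, *Lig1* between -0.74 and -0.67 and *Pcna* between 0.25 and 0.33. No paired analysis was possible because the groups held a single library each. Depth bounds the least counted genes, as *Orc1* and *Pole* rest on under 100 counts each.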
